A study of Drosophila melanogaster with 14 samples.

Results

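Flies that carried both the elav-Gal4 driver and a UAS-APP transgene (genotype Elav-Gal4;UAS-APP;+) were compared with flies that carried the driver alone (Elav-Gal4;+;+), across all genes with enough signal to be tested. Members of the comparison were the genes with FPKM (fragments per kilobase of exon, scaled to the library's total) of 1 or more in at least 2 of the 4 libraries, which left 9742 of the 14767 genes listed. Each group had 2 libraries, and both groups were labelled as adult males 5 to 7 days old, with about 50 brains in a library by the labels. A second control, UAS-APP without the driver (w;UAS-APP;+, 2 libraries), stands beside some values but entered no test here. The whole series holds 14 libraries in 7 groups. The labels name the tissue as brain and describe dissected brains fixed in paraformaldehyde, whereas the design text names heads. The labels do not tell whether paired libraries stem from separate crosses or dissections, so each p-value reflects the spread among these libraries alone, which may be technical. The labels give no species for the APP sequence, and transcripts of the transgene itself were not analysed here.

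The Gal4/UAS system puts a transgene under the control of the promoter that drives Gal4. The elav promoter is used to drive transgenes in neurons throughout the nervous system, and the driver control carries the same Gal4 insertion without a target. APP, the amyloid precursor protein, is a membrane protein that secretases cut into fragments, among them the amyloid peptides found in plaques of Alzheimer's disease. Flies have a single APP relative, Appl, which is made in neurons. A whole fly head holds brain neurons and glia, the retina, antennae, muscle, cuticle and fat body, while digestive enzymes are made in the midgut, which lies in the thorax and abdomen.

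The 4 libraries held 18695357 and 18826486 fragments in elav-Gal4 UAS-APP and 19255998 and 19660279 fragments in the driver control. Marker genes were read first, because both driver libraries held abundant transcripts of a tissue that the label does not name. The midgut trypsin betaTry had 220.3 and 219 FPKM in elav-Gal4 UAS-APP, against 9927 and 10129 FPKM in the driver control. The enterocyte gene mex1 had 0.527 and 0.479 FPKM in elav-Gal4 UAS-APP, against 40.9 and 42.4 FPKM in the driver control. Neuronal markers went the other way, with elav, the RNA-binding protein that marks neurons, at 20.3 and 20.6 FPKM in elav-Gal4 UAS-APP, against 2.22 and 2.41 FPKM in the driver control. The rhodopsin ninaE of the outer photoreceptors had 16909.6 and 16884 FPKM in elav-Gal4 UAS-APP, against 1523 and 1552 FPKM in the driver control. For all of these genes the libraries of the 2 groups were far apart and did not overlap, and the 2 libraries within a group were close. Of the 5 midgut markers, 4 were lower in elav-Gal4 UAS-APP, and lab, a homeotic gene of the copper cell region, was not (1.09 and 1.22 FPKM in elav-Gal4 UAS-APP, 1.01 and 1.27 FPKM in the driver control).

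The fragments that went to whole marker lists gave the same order. Of all fragments, the list of midgut serine proteases took 0.0947% and 0.0964% in elav-Gal4 UAS-APP, against 5.26% and 5.32% in the driver control and 2.23% and 2.42% in the UAS-APP control. The photoreceptor list took 7.42% and 7.40% in elav-Gal4 UAS-APP, against 0.795% and 0.806% in the driver control and 5.71% and 4.69% in the UAS-APP control, and the list of pan-neuronal markers took 0.800% and 0.789% in elav-Gal4 UAS-APP, against 0.0667% and 0.0669% in the driver control and 0.283% and 0.207% in the UAS-APP control. The UAS-APP control thus lay between the other groups on these 3 lists. Some markers of other organs were at or near 0 in both groups and others were not. The tubule gene Uro and the testis gene dj had 1 fragment in 1 elav-Gal4 UAS-APP library and none in the driver control, and the accessory gland gene Acp26Aa had none. Of the other tubule markers, salt had 1 fragment in 1 elav-Gal4 UAS-APP library, and the transporter Oatp58Dc was higher (2.25) and the potassium channel Irk1 lower (-1.42) in elav-Gal4 UAS-APP. The flight muscle actin Act88F and the yolk gene Yp2 of the ovary marker set were well above 0 in the driver control and lower in elav-Gal4 UAS-APP (-1.77 and -7.09). Other markers of these organs did not all follow. The muscle gene TpnC4 was lower (-1.10), but fln had 34 and 29 fragments in elav-Gal4 UAS-APP, against 7 and 1 in the driver control. The testis gene betaTub85D had 48 and 40 fragments, against 6 and 2. Neither fln (0.55) nor betaTub85D (0.59) was called. Both driver libraries carry the midgut transcripts, so no value without them can be given. Genotype and the amount of midgut, eye and nervous tissue in a library cannot be told apart in this comparison, and their part in the differences that follow was not tested. In these bulk samples, fewer cells of a type and less RNA per cell also cannot be told apart.

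**Figure D1:**
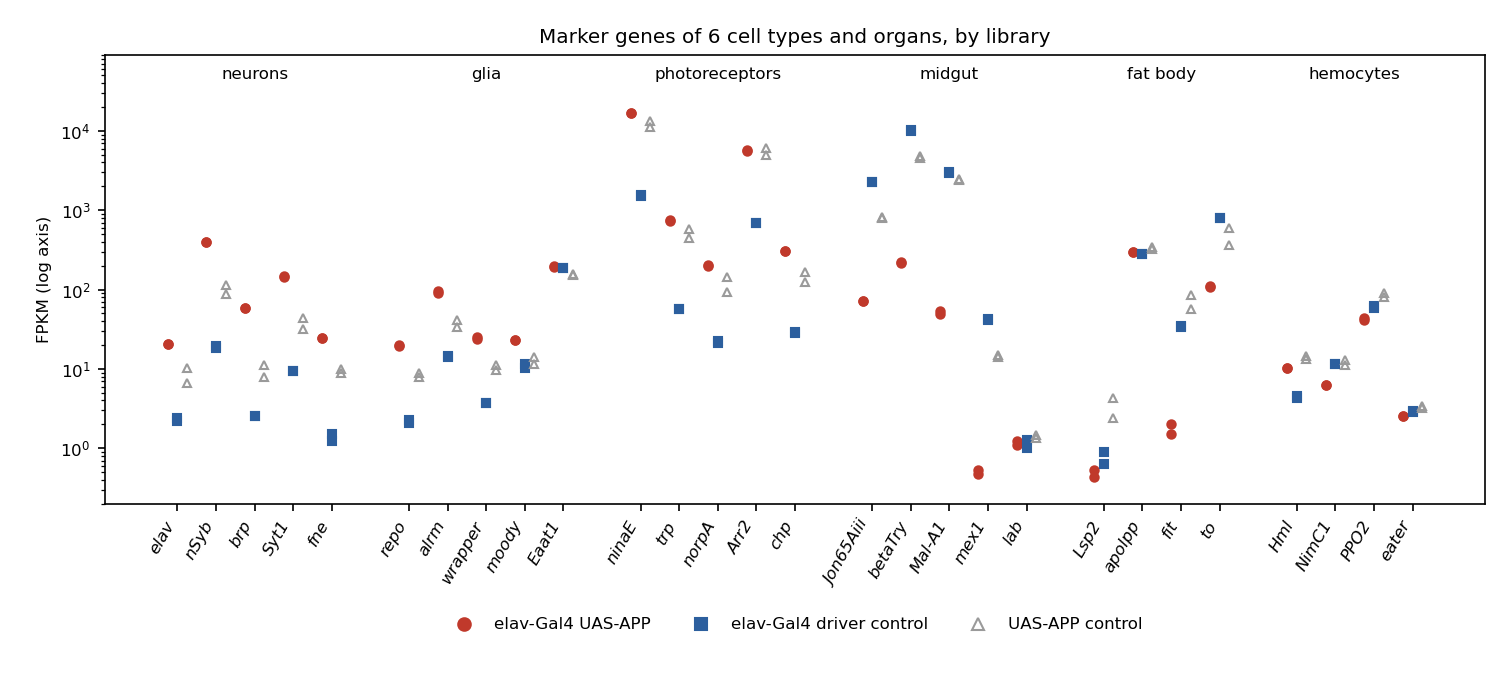
FPKM of marker genes (log axis) for neurons, glia, photoreceptors, midgut, fat body and hemocytes, 1 point per library, in elav-Gal4 UAS-APP (red circles), the driver control (blue squares) and the UAS-APP control (grey triangles). In elav-Gal4 UAS-APP the neuronal and photoreceptor markers are higher than in driver libraries, and Jon65Aiii, betaTry, Mal-A1 and mex1 are lower.

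**Figure D2:**
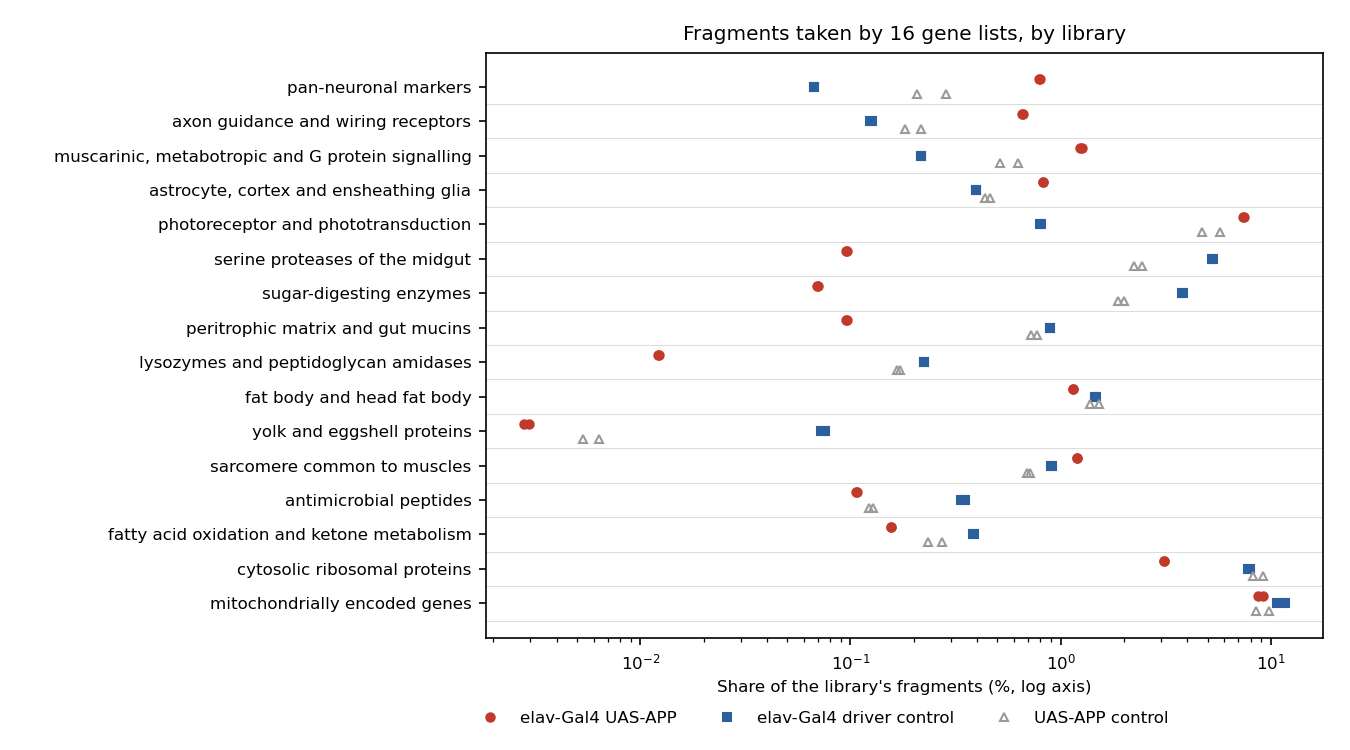
Share of each library's fragments (percent, log axis) taken by 16 gene lists, 1 point per library and the same symbols for the 3 groups. Midgut proteases took 0.0947% and 0.0964% in elav-Gal4 UAS-APP, against 5.26% and 5.32% in the driver control.

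Differences were large and the libraries within a group were alike. A gene was called when limma's moderated test on log2(FPKM + 1) gave a Benjamini-Hochberg adjusted p under 0.05 over all 9742 genes and the difference, less the median of all tested genes, was at least 1 on the log2 scale, which is 2-fold. Without the 2-fold limit, the adjusted p alone would give 42.7% of tested genes higher and 43% lower. By this rule 1868 genes were raised in elav-Gal4 UAS-APP (19.2% of the tested genes) and 1942 were lowered (19.9%). Together these made 39.1% of the tested genes, and these shares are the background for every count of list members given here. A change of at least 8-fold was seen for 147 raised and 387 lowered genes. The largest adjusted p among called genes was 0.0142. The groups did not overlap for 9111 genes (93.5%), so separation of the groups alone distinguishes few genes.

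The median difference of 0.44 that was taken away decides the balance of directions. Raised genes made 49% of the called genes with it taken away, and 69.4% without (2932 raised and 1291 lowered). All log2 values below are differences of log2(FPKM + 1), elav-Gal4 UAS-APP minus the driver control, less this median. The pseudocount of 1 makes them smaller than the FPKM ratio for weakly expressed genes. Of the tested genes, 962 had passed the FPKM limit only through elav-Gal4 UAS-APP and 330 only through the driver control. Of these, 460 and 311 were called in the direction that this route favours. Just inside the limit of FPKM 1 lay 113 genes within 10% of it, and 95 genes lay within 10% below it.

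**Figure D3:**
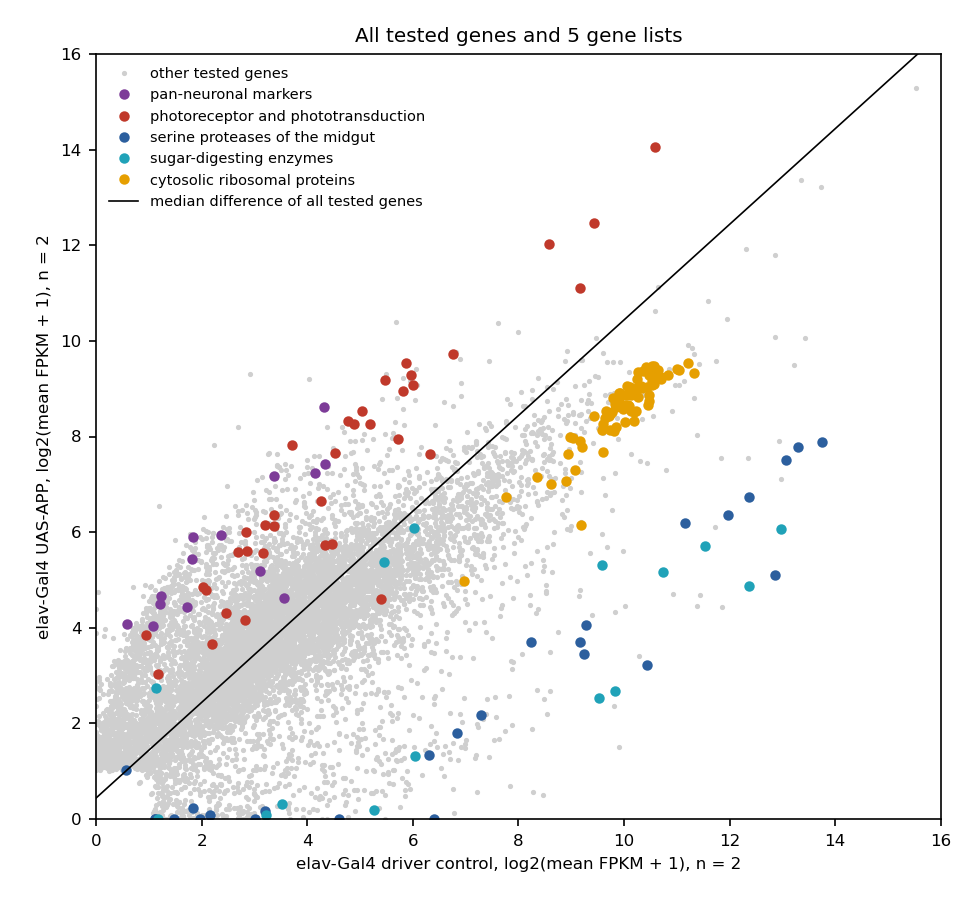
Mean level of every tested gene, log2(mean FPKM + 1) over 2 libraries, in elav-Gal4 UAS-APP (vertical) and in the driver control (horizontal), with 5 gene lists coloured. The line marks the median difference of 0.44, with photoreceptor genes and pan-neuronal markers mostly above it and midgut proteases, sugar-digesting enzymes and ribosomal proteins mostly below it.

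Genes of the nervous system were mostly raised. Of the 14 pan-neuronal markers 13 were raised and none lowered (median 2.92, against 0 for all tested genes by construction). The member that was not called was Nrg, neuroglian, an adhesion protein that is also made in epithelia (0.63). The vesicle SNARE nSyb, which drives transmitter release, had 395 and 393 FPKM in elav-Gal4 UAS-APP, against 18.5 and 19.4 FPKM in the driver control. Both elav-Gal4 UAS-APP libraries were far above both driver libraries, a difference of 3.87 (SE 0.0311, limma adjusted p = 5.77e-09). The plasma membrane SNARE Snap25 differed less, with 172 and 169 FPKM in elav-Gal4 UAS-APP, against 18.7 and 19.9 FPKM in the driver control (2.64, SE 0.0380, limma adjusted p = 2.98e-08).

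Receptors and adhesion proteins that guide axons and sort synaptic partners were raised in 32 of 46 members and lowered in none, with a median of 1.92. Of the 46, 15 had passed the FPKM limit only through elav-Gal4 UAS-APP. The immunoglobulin proteins bdl (borderless) and fipi rose by 2.65 and 2.58 on the log2 scale. For bdl the libraries had 201 and 202 FPKM in elav-Gal4 UAS-APP, against 22.1 and 23.7 FPKM in the driver control, with no overlap between the groups. The second immunoglobulin gene, fipi, was at 64.1 and 62.8 FPKM in elav-Gal4 UAS-APP, against 7.06 and 6.91 FPKM in the driver control. Across the list values ran from -0.66 for NetA, a secreted netrin, to 3.53 for Dscam2, an immunoglobulin protein by which neurites recognise each other. The heparan sulfate proteoglycan dally was not called (50.3 and 49.3 FPKM in elav-Gal4 UAS-APP, against 40.8 and 39.9 FPKM in the driver control).

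Among transcription factors of neurons 21 of 31 tested members were raised and 1 was lowered, and 11 of the 31 had passed the FPKM limit only through elav-Gal4 UAS-APP. The most abundant were onecut, the Pax6 gene toy and the homeodomain factor pros. For onecut the libraries had 60.8 and 60.8 FPKM in elav-Gal4 UAS-APP, against 4.07 and 4.22 FPKM in the driver control, and pros had 28.1 and 27.4 FPKM in elav-Gal4 UAS-APP, against 1.51 and 1.64 FPKM in the driver control. Both genes stood many-fold apart between the groups without overlap. The lowered member was Lim3, a LIM-homeodomain factor of motor neuron identity, at 3.85 and 3.90 FPKM in elav-Gal4 UAS-APP, against 7.34 and 8.57 FPKM in the driver control (-1.31, SE 0.0874, limma adjusted p = 1.96e-05).

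RNA-binding and splicing factors of neurons were raised in 13 of 17 members, with none lowered and a median of 1.73. Rbp9, a relative of elav, had 151 and 148 FPKM in elav-Gal4 UAS-APP, against 16.9 and 16.5 FPKM in the driver control. The KH-domain protein mub had 80.3 and 77.5 FPKM in elav-Gal4 UAS-APP, against 15.4 and 15.4 FPKM in the driver control. Both were higher in every elav-Gal4 UAS-APP library, and bru2, a Bruno-type RNA-binding protein, gave the lowest value of the list without a call (-0.52).

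Of genes named for learning, memory and the mushroom body, 16 of 19 were raised and none lowered (median 1.56), and 4 had passed the FPKM limit only through elav-Gal4 UAS-APP. DopEcR, a receptor for dopamine and ecdysteroids, had 136 and 133 FPKM in elav-Gal4 UAS-APP, against 7.46 and 7.18 FPKM in the driver control, the largest difference of the list at 3.59 (SE 0.0376, limma adjusted p = 1.08e-08). The calcium-dependent kinase CaMKII had 166 and 164 FPKM in elav-Gal4 UAS-APP, against 38.4 and 36.7 FPKM in the driver control. Its difference of 1.67 was smaller, and the abundant adaptor 14-3-3zeta was not called (0.55).

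Muscarinic and metabotropic receptors and their G proteins were raised in 18 of 28 members and lowered in 1. The beta and gamma subunits of the visual G protein, Gbeta76C and Ggamma30A, rose by 2.53 and 3.05. The more widely used gamma subunit Ggamma1 had 464 and 452 FPKM in elav-Gal4 UAS-APP, against 118 and 122 FPKM in the driver control, a rise of 1.49. The lowered member was the adenylate cyclase ACXD, with 7.72 and 7.56 FPKM in elav-Gal4 UAS-APP, against 21.5 and 22.1 FPKM in the driver control.

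Motor proteins and microtubule-binding proteins stood closer to the background, with 10 of 26 raised, none lowered and a median of 0.62. Conventional kinesin heavy chain Khc (0.09) and the dynein heavy chain Dhc64C (0.64) were not called. The kinesin unc-104, which carries synaptic vesicle precursors along axons, had 156 and 156 FPKM in elav-Gal4 UAS-APP, against 10.4 and 10.4 FPKM in the driver control. That gene rose by 3.35 (SE 0.0306, limma adjusted p = 7.86e-09), and the microtubule-binding proteins futsch and tau rose by 3.18 and 1.61.

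In the eye, 31 of 36 photoreceptor and phototransduction genes were raised and 1 was lowered (median 2.49). The arrestins Arr1 and Arr2, which switch off activated rhodopsin, had high levels throughout. Arr1 had 4159 and 4159 FPKM in elav-Gal4 UAS-APP, against 377 and 389.8 FPKM in the driver control, and Arr2 had 5629 and 5667 FPKM in elav-Gal4 UAS-APP, against 682 and 693 FPKM in the driver control. The groups did not overlap for either arrestin, and the UAS-APP control had 6129 and 5005 FPKM of Arr2, close to elav-Gal4 UAS-APP. Differences within the list ran from -1.23 for pinta, a retinoid-binding protein needed to make visual pigment, to 3.68 for the rhodopsin Rh5. Genes of eye pigment synthesis and transport did not follow the photoreceptor genes: 3 of 18 were raised and 3 were lowered. The pigment transporter white, w, had 23.6 and 24.5 FPKM in elav-Gal4 UAS-APP, against 16.0 and 17.0 FPKM in the driver control, and its difference of 0.08 did not pass (SE 0.0490, limma adjusted p = 0.176). The 3 lowered genes were v (-1.53) and Hn (-1.46), enzymes of tryptophan and phenylalanine breakdown, and ry (-1.07), xanthine dehydrogenase.

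Odorant-binding and other soluble proteins of antenna and proboscis went both ways, with 15 of 29 raised and 9 lowered. Orco, the coreceptor of olfactory neurons, rose by 2.55. The abundant secreted proteins EbpIII and Obp99c fell, at 1383 and 1409 FPKM in elav-Gal4 UAS-APP, against 3921 and 3981 FPKM in the driver control for EbpIII. Obp99c had 571 and 569.5 FPKM in elav-Gal4 UAS-APP, against 2237 and 2283 FPKM in the driver control. The fall of EbpIII, -1.94, changed sign when libraries were quantile normalized, while Obp19d was not called (-0.39). Genes of cilium assembly, which sensory neurons need, were raised in 9 of 19, but 14 of these 19 had passed the FPKM limit only through elav-Gal4 UAS-APP. IFT54, an intraflagellar transport protein, had 16.6 and 15.9 FPKM in elav-Gal4 UAS-APP, against 0.648 and 0.718 FPKM in the driver control, while the UAS-APP control had 0.721 and 1.05 FPKM.

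Glial genes differed between 2 lists, which share some members. Of astrocyte, cortex and ensheathing glia genes 13 of 23 were raised and 2 lowered (median 1.60). The astrocyte gene alrm had 89.7 and 94.9 FPKM in elav-Gal4 UAS-APP, against 14.5 and 14.3 FPKM in the driver control. It was several-fold higher in elav-Gal4 UAS-APP without overlap and the glial transcription factor repo rose by 2.26, whereas the glutamate transporter Eaat1 (-0.35) and glutamine synthetase Gs2 (0.42) were not called. The trehalose transporter Tret1-1 (-1.24) and glutactin, Glt (-1.11), fell, but neither belongs to this list alone. Tret1-1 is also counted in the list of blood-brain barrier glia, and Glt in the hemocyte list. Of 18 genes of blood-brain barrier glia, 2 were raised and 3 lowered, both shares below the background of 19.2% and 19.9%. Among them the citrate transporter Indy had 48.1 and 49.8 FPKM in elav-Gal4 UAS-APP, against 145 and 149.8 FPKM in the driver control. The xenobiotic pump Mdr65 rose by 1.91 and the septate junction protein Nrx-IV by 1.15, while Indy fell by 2.01. The barrier receptor moody was not called (23.0 and 23.4 FPKM in elav-Gal4 UAS-APP, against 11.6 and 10.4 FPKM in the driver control).

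The 10 most raised genes with at least FPKM 10 in the higher group were not led by neuronal genes. CG9676, CG8329, CG7829 and CG3088 each carry a trypsin domain in the deposited annotation. CG9676 (chromosome arm X, 16699152 to 16700170, minus strand, BDGP6) had 629 and 640.4 FPKM in elav-Gal4 UAS-APP, against 6.79 and 6.28 FPKM in the driver control. Its difference of 5.96 (SE 0.0398, limma adjusted p = 3.48e-09) was the largest of the 10, and the UAS-APP control held 345 and 294 FPKM. CG8329 (3L, 9638112 to 9639021, plus strand) had 293 and 296 FPKM in elav-Gal4 UAS-APP, against 5.48 and 5.48 FPKM in the driver control. The UAS-APP control was higher than both for this gene, at 1008 and 926 FPKM. The odorant-binding protein Obp56g had 220.2 and 229 FPKM in elav-Gal4 UAS-APP, against 3.99 and 3.39 FPKM in the driver control, and CG8343, annotated with a C-type lectin domain, had 1334 and 1356 FPKM in elav-Gal4 UAS-APP, against 50.7 and 50.5 FPKM in the driver control. In all of these genes the low group was the driver control, and no library of one group reached the range of the other.

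Crg-1, which carries a forkhead domain, and lncRNA:CR46123 were near or at 0 in both control groups. Both had passed the FPKM limit only through elav-Gal4 UAS-APP, which favours a call in that direction. Crg-1 (X, 3793223 to 3797339, plus strand) had 24.8 and 26.9 FPKM in elav-Gal4 UAS-APP, against 0 and 0.0414 FPKM in the driver control, and the UAS-APP control had 0.0831 and 0.0462 FPKM. The noncoding RNA (3R, 1366234 to 1366601, minus strand) had 20.2 and 20.1 FPKM in elav-Gal4 UAS-APP, against 0 and 0 FPKM in the driver control. Both UAS-APP control libraries were at 0 as well. With a floor of 3 counts per library, 0.423 and 0.415 FPKM in the driver control, this RNA was at least 47.6-fold higher in elav-Gal4 UAS-APP. Floors cover counting error only. The other genes of the 10 were CG14277 (4.06) and the acetylcholine receptor subunit nAChRbeta1 (3.94).

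Digestive enzymes were among the strongest decreases. Of 26 tested midgut serine proteases 25 were lowered and none raised (median -5.46), and 10 had passed the FPKM limit only through the driver control. The trypsin alphaTry had 229 and 240.1 FPKM in elav-Gal4 UAS-APP, against 13568 and 14049 FPKM in the driver control. Jon99Cii, a Jonah protease, had 181 and 181 FPKM in elav-Gal4 UAS-APP, against 8561 and 8523 FPKM in the driver control. The driver libraries were the high ones for both, and the differences were -6.31 and -5.99. Try29F alone in this list was not called (0.03). Trypsin, Jonah, amylase and lysozyme genes include near-identical copies in tandem, so the value of a single copy is uncertain.

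Enzymes that digest starch and sugars were lowered in 12 of 15 cases and raised in 1. Of these 15, 4 had passed the FPKM limit only through the driver control, which favours a call in that direction. Of all fragments the list took 0.0701% and 0.0695% in elav-Gal4 UAS-APP, against 3.76% and 3.82% in the driver control. The amylase Amy-p had 67.1 and 64.6 FPKM in elav-Gal4 UAS-APP, against 7968 and 8179 FPKM in the driver control. The maltase Mal-A1 had 53.8 and 48.6 FPKM in elav-Gal4 UAS-APP, against 2937 and 2993 FPKM in the driver control. In contrast to these falls of -7.35 and -6.27, the maltase Mal-B1 rose by 1.17, at 5.81 and 5.56 FPKM in elav-Gal4 UAS-APP, against 1.23 and 1.15 FPKM in the driver control.

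The 10 most lowered genes were of the same kind where a domain was annotated. They comprised the trypsin-domain genes yip7, CG7542 and Jon99Ci, the amylase-domain genes Amy-d and Mal-A7, the lipase-domain gene CG17192, CG3739 with a peptidase S28 domain, and CG15263, CG5107 and CG4734. CG3739 (3R, 19393360 to 19395188, plus strand) had 2.02 and 1.67 FPKM in elav-Gal4 UAS-APP, against 955 and 961 FPKM in the driver control, the largest fall at -8.84 (SE 0.0596, limma adjusted p = 3.48e-09). CG17192 had 0.712 and 0.252 FPKM in elav-Gal4 UAS-APP, against 314 and 305 FPKM in the driver control. The driver control was the high group for both, with 16.8 and 28.6 FPKM of CG17192 in the UAS-APP control. CG17192, CG15263 and CG4734 had passed the FPKM limit only through the driver control, which favours a call in that direction.

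Genes of other gut functions mostly fell with the enzymes. Lysozymes and peptidoglycan amidases, which break down bacterial walls, were lowered in 10 of 12 members, 4 of which had passed the FPKM limit only through the driver control. LysD had 70.5 and 65.6 FPKM in elav-Gal4 UAS-APP, against 3397 and 3404 FPKM in the driver control. Of peritrophic matrix and mucin genes 5 of 8 were lowered, among them Muc68D at 157 and 155 FPKM in elav-Gal4 UAS-APP, against 1778 and 1785 FPKM in the driver control. In the same list Crys was raised (1.86) and Gasp was not called (0.33). Enterocyte and gut lipid transport genes were lowered in 8 of 11, 3 of which had passed only through the driver control, among them the brush border myosin Myo61F at 2.88 and 3.68 FPKM in elav-Gal4 UAS-APP, against 156 and 162 FPKM in the driver control. For LysD, Muc68D and Myo61F the driver control was the high group in every library. Genes of the acid zone and of iron storage were lowered in 9 of 15, and the zinc- and copper-binding MtnA was not called (-0.71).

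Transcription factors and hormones of the gut divided. GATAe, a GATA factor of the midgut, had 0.735 and 0.684 FPKM in elav-Gal4 UAS-APP, against 19.9 and 19.9 FPKM in the driver control. The homeodomain factor exex had 1.89 and 1.59 FPKM in elav-Gal4 UAS-APP, against 28.2 and 30.4 FPKM in the driver control, and Ptx1 fell by 1.87. The peptide hormones AstA, Mip and Dh31, which gut endocrine cells share with brain neurons, rose by 2.99, 2.49 and 2.87. CCHa2 had 65.1 and 66.2 FPKM in elav-Gal4 UAS-APP, against 479.6 and 489 FPKM in the driver control, while Tk was not called (0.10). The list as a whole thus had 6 raised and 4 lowered of 15, and its peptides and factors did not move in one direction.

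In a list of septate junction and basement membrane genes 5 of 26 were raised and 5 lowered, shares near the background of 19.2% and 19.9%. mesh and Tsp2A build the smooth septate junctions of gut epithelia. mesh had 1.94 and 1.82 FPKM in elav-Gal4 UAS-APP, against 54.8 and 57.7 FPKM in the driver control, and Tsp2A had 4.18 and 4.30 FPKM in elav-Gal4 UAS-APP, against 46.4 and 47.8 FPKM in the driver control. Both were far lower in elav-Gal4 UAS-APP. The sodium pump subunits Atpalpha and nrv2, which are abundant in the nervous system, rose by 1.70 and 1.64, with Atpalpha at 772 and 754 FPKM in elav-Gal4 UAS-APP, against 172 and 173 FPKM in the driver control. Core proteins of pleated septate junctions such as kune (-0.46) and sinu (0.01) were not called.

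Fat body genes were lowered in 16 of 29 and raised in none (median -1.26), and 4 had passed the FPKM limit only through the driver control. The secreted protein takeout, to, had 108 and 110.2 FPKM in elav-Gal4 UAS-APP, against 793 and 793 FPKM in the driver control. The yolk proteins, which female fat body and follicle cells make, were a special case in libraries labelled male. Yp2 had 0.463 and 0.492 FPKM in elav-Gal4 UAS-APP, against 145 and 150.4 FPKM in the driver control. Yp3 had 8.68 and 8.73 FPKM in elav-Gal4 UAS-APP, against 230.2 and 242 FPKM in the driver control, and Yp1 fell by 5.18. In the UAS-APP control Yp2 had 0.316 and 0.281 FPKM, and Yp3 had 24.4 and 31.4 FPKM, so the driver control was the highest of the 3 groups for both. The germline gene osk had 1 fragment in each elav-Gal4 UAS-APP library and none in the driver control, and the eggshell gene Vm26Aa had 1 fragment in 1 library of each group. The lipoprotein gene apolpp was near equal, at 298 and 297 FPKM in elav-Gal4 UAS-APP, against 283 and 285 FPKM in the driver control, and was not called (-0.37).

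The noncoding RNA lncRNA:roX1, which coats the male X chromosome, was abundant in both groups, with 219.9 and 216 FPKM in elav-Gal4 UAS-APP, against 69.7 and 70.8 FPKM in the driver control. It rose by 1.18, and the RNA helicase mle, its partner in dosage compensation, by 1.39. Among other subunits of that complex, msl-1 (0.29), msl-3 (0.25) and mof (-0.06) were not called. In the whole list of sex determination and dosage compensation genes 4 of 14 were raised and none lowered. The raised share was 28.6%, against 19.2% of all tested genes.

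Genes of the common sarcomere differed little. Of 26 such genes 2 were raised and 3 lowered, shares below the background. Act57B had 395 and 394 FPKM in elav-Gal4 UAS-APP, against 269.6 and 272 FPKM in the driver control, and was not called. The troponin C genes TpnC47D, TpnC41C and TpnC73F fell by 3.81, 2.80 and 2.69, and these were picked out after their values were seen. A list drawn up for flight muscle, whose members are not all particular to it, had 4 of 6 lowered. The flight muscle marker Act88F fell (-1.77), while the marker fln was not called (0.55). The actin Act79B of the list had 68.1 and 68.2 FPKM in elav-Gal4 UAS-APP, against 267 and 277 FPKM in the driver control. In the hemocyte list 3 of 19 were raised and 7 lowered. The most abundant members of the list, SPARC, Ance and Glt, were all lowered, as was the hemocyte marker NimC1 (-1.23). The collagen IV genes Col4a1 and vkg rose by 1.23 and 1.15, whereas Hml (0.61) and PPO2 (-0.91) were not called. Tubule and nephrocyte genes were raised in 6 and lowered in 7 of 23, among them kcc, a potassium-chloride cotransporter, which rose by 1.86. Hydrocarbon synthesis genes of oenocytes were lowered in 4 of 8, with the desaturase Desat1 at 680.2 and 682 FPKM in elav-Gal4 UAS-APP, against 1855 and 1854 FPKM in the driver control. The raised member of that list was Cyp4g15 (1.97).

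Antimicrobial peptides were lowered in 20 of 32 and raised in 1 (median -1.13). BomBc2, a Bomanin secreted in the Toll response, had 173 and 172 FPKM in elav-Gal4 UAS-APP, against 1368 and 1396 FPKM in the driver control. Drsl5, a Drosomycin-like peptide, had 331 and 317 FPKM in elav-Gal4 UAS-APP, against 1161 and 1092 FPKM in the driver control. Both were lower in each elav-Gal4 UAS-APP library. AttB, an attacin, was raised, at 17.1 and 15.5 FPKM in elav-Gal4 UAS-APP, against 3.72 and 3.30 FPKM in the driver control, while its near-copy AttA fell by 1.11, and attacin copies cannot be told apart with certainty. All 6 tested Turandot and related stress genes were lowered, with TotA at 89.0 and 84.4 FPKM in elav-Gal4 UAS-APP, against 883 and 859.7 FPKM in the driver control. Of chaperones 3 of 25 were raised and 8 lowered. Hsc70-4, an abundant constitutive chaperone, and Hsp83, the fly Hsp90, fell by 1.18 and 1.11, but both reversed under quantile normalization. The near-identical Hsp70 copies gave opposite calls, with Hsp70Bc raised (1.39) and Hsp70Ba lowered (-1.22).

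Lists of protein synthesis differed among themselves. All 75 tested cytosolic ribosomal proteins were lowered (median -1.77, from -3.46 to -1.37), and of all fragments they took 3.10% and 3.09% in elav-Gal4 UAS-APP, against 7.76% and 7.90% in the driver control and 8.18% and 9.19% in the UAS-APP control. RpLP2, a stalk protein of the large subunit, had 732 and 744 FPKM in elav-Gal4 UAS-APP, against 2337 and 2420.4 FPKM in the driver control. RpL41 had 657 and 619.6 FPKM in elav-Gal4 UAS-APP, against 2613 and 2488 FPKM in the driver control. No library of elav-Gal4 UAS-APP reached the range of the driver control for either gene. Under quantile normalization 6 of the 75 were still lowered and the median was -0.20, so the size of this decrease rests on how libraries are scaled.

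Within translation factors 10 of 41 were lowered and 2 raised, and paralogs of 1 factor moved in opposite directions. eEF1alpha1, the general form of the elongation factor, had 956 and 969 FPKM in elav-Gal4 UAS-APP, against 2356 and 2386 FPKM in the driver control. eEF1alpha2, the form known from neurons and muscle, had 378 and 381 FPKM in elav-Gal4 UAS-APP, against 55.3 and 54.8 FPKM in the driver control. The groups did not overlap for either form, and the differences were -1.74 and 2.33. The fall of eEF1alpha1 reversed under quantile normalization, and the rise of eEF1alpha2 did not. The cap-binding repressor eIF4EHP also rose, by 1.72. Ribosome biogenesis genes were lowered in 12 of 33, and in 12 under quantile normalization and 5 with no median taken away. Aminoacyl-tRNA synthetases were lowered in 4 of 23 and mitochondrial ribosomal proteins in 9 of 66, both shares below the background of 19.9%.

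Proteasome subunits were lowered in 16 of 34, with 2 lowered when no median was taken away and 2 under quantile normalization. Their values were closely grouped from -2.45 to -0.19, so the 2-fold limit divides them. Genes of protein entry into the endoplasmic reticulum and of vesicle coats were lowered in 29 of 42, in 18 under quantile normalization and in 8 with no median taken away. Sec61beta, part of the translocation channel, had 75.3 and 72.5 FPKM in elav-Gal4 UAS-APP, against 186 and 189 FPKM in the driver control. Redox and unfolded-protein response genes were lowered in 18 of 32, against 6 under quantile normalization and 8 with no median taken away. The superoxide dismutase Sod1 was among them, at 470.1 and 483 FPKM in elav-Gal4 UAS-APP, against 1151 and 1194 FPKM in the driver control.

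The proton pump of vesicles and lysosomes showed a second pair of paralogs. Of lysosomal and V-ATPase genes 13 of 36 were lowered and 2 raised. The raised genes were subunit A form Vha68-1, at 204 and 199.6 FPKM in elav-Gal4 UAS-APP, against 28.1 and 26.7 FPKM in the driver control, and the neuronal subunit a form Vha100-1, at 116 and 116 FPKM in elav-Gal4 UAS-APP, against 32.0 and 33.4 FPKM in the driver control. Their paralogs Vha68-2 and Vha100-2 fell by 2.25 and 2.22, and were looked up after these values were seen. The gut form Vha100-4 fell by 3.97. Shared subunits such as Vha16-1 (-0.98) and Vha26 (-0.80) were not called.

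Genes of the respiratory chain were called in shares below the background of 19.9%. Of 31 complex I genes 5 were lowered, of 18 genes of complexes III and IV 3, and of 14 ATP synthase genes 2, with none raised. The medians of these lists were -0.77, -0.85 and -0.72, and under quantile normalization they were 0.04, 0.39 and 0.45. No direction can be given for these lists. The same held for glycolysis (-0.48, and 0.45 under quantile normalization), where PyK had 566 and 567 FPKM in elav-Gal4 UAS-APP, against 414 and 433 FPKM in the driver control. Of mitochondrially encoded genes 7 of 14 were lowered (median -1.06), but under quantile normalization 3 were lowered and the median was -0.04. The cytochrome oxidase subunit mt:CoI had 10486 and 10466 FPKM in elav-Gal4 UAS-APP, against 10569.5 and 10303 FPKM in the driver control, and was not called.

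Fatty acid oxidation genes formed a clearer group, with 16 of 19 lowered and none raised (median -1.79, -1.13 under quantile normalization). whd, the carnitine palmitoyltransferase that admits fatty acids to mitochondria, had 64.6 and 65.0 FPKM in elav-Gal4 UAS-APP, against 223 and 222 FPKM in the driver control. scu, a hydroxyacyl-CoA dehydrogenase, had 89.5 and 94.7 FPKM in elav-Gal4 UAS-APP, against 276 and 277 FPKM in the driver control. Both were lower in each elav-Gal4 UAS-APP library. For whd the UAS-APP control, at 71.1 and 89.9 FPKM, was close to elav-Gal4 UAS-APP. Of all fragments the whole list took 0.156% and 0.156% in elav-Gal4 UAS-APP, against 0.381% and 0.387% in the driver control. The UAS-APP control lay between them, at 0.232% and 0.274%.

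Amino acid metabolism was lowered in 16 of 27 genes, with proline and glutamate enzymes divided. P5CS, which makes proline from glutamate, had 172 and 175 FPKM in elav-Gal4 UAS-APP, against 437 and 449 FPKM in the driver control. slgA, the proline dehydrogenase that begins its breakdown, had 105 and 106 FPKM in elav-Gal4 UAS-APP, against 20.6 and 20.8 FPKM in the driver control. Glutamate dehydrogenase, Gdh, had 298 and 309 FPKM in elav-Gal4 UAS-APP, against 82.2 and 86.6 FPKM in the driver control. The first enzyme was thus lower and the other 2 were higher in elav-Gal4 UAS-APP, by -1.78, 1.86 and 1.40. In the citrate cycle 5 of 20 were lowered, Idh and the cytosolic Mdh1 most (-2.14 and -1.93).

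Genes of detoxification and transport went both ways. Of glutathione S-transferases 5 of 31 were raised and 16 lowered, within the same gene cluster in the case of GstE4 and GstE9. GstE4 had 75.0 and 79.2 FPKM in elav-Gal4 UAS-APP, against 9.16 and 10.2 FPKM in the driver control. GstE9 had 113 and 104 FPKM in elav-Gal4 UAS-APP, against 465 and 484 FPKM in the driver control, and the 2 differences of 2.43 and -2.56 were opposite. Among sugar, amino acid and monocarboxylate transporters 11 of 27 were raised and 7 lowered.

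Chromatin proteins were raised in 7 of 33, a share near the background of 19.2%. The histone gene His4r was lowered (-1.40). Spliceosome and SR protein genes were raised in 3 and lowered in 5 of 30, and the raised ones were the regulators B52 (1.82), hfp (1.49) and Rsf1 (1.16). Of clock genes 4 of 19 were raised, also near that background. The 1 lowered was takeout (-3.28), which is also counted in the fat body list. The circadian photoreceptor cry had 139 and 139.8 FPKM in elav-Gal4 UAS-APP, against 86.2 and 87.3 FPKM in the driver control, and was not called, nor was tim (-0.83). Pdf, the neuropeptide of the clock neurons, rose by 2.85.

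The genes closest to the transgene were examined by role. The APP relative Appl (X, 530501 to 579044, plus strand) had 168 and 168 FPKM in elav-Gal4 UAS-APP, against 9.50 and 9.98 FPKM in the driver control. Both elav-Gal4 UAS-APP libraries were high and the driver libraries low, a difference of 3.54 (SE 0.0358, limma adjusted p = 9.81e-09), with 41.8 and 30.9 FPKM in the UAS-APP control. The pan-neuronal markers had a median difference of 2.92 and ranged from 0.63 to 3.87, so Appl lay within their range and above their median. Of the cutting enzymes, the alpha-secretase relative kuz was raised, at 11.9 and 11.3 FPKM in elav-Gal4 UAS-APP, against 2.24 and 2.34 FPKM in the driver control, and its relative Tace rose by 2.48. The gamma-secretase subunits Psn (-0.51), aph-1 (-0.80) and pen-2 (0.98) were not called. The beta-secretase relative Bace had 24.2 and 25.1 FPKM in elav-Gal4 UAS-APP, against 2737 and 2809 FPKM in the driver control, so this gene fell by 7.20, as far as the digestive enzymes above. In the whole list of 27 secretases, adaptors, neprilysins and tau kinases 13 were raised and 2 lowered. Cdk5alpha, the activator of the kinase Cdk5, had 86.7 and 86.1 FPKM in elav-Gal4 UAS-APP, against 8.48 and 7.33 FPKM in the driver control, while Cdk5 itself was not called (-0.16). The potassium channel gene Shal rose by 1.18, at 32.3 and 33.5 FPKM in elav-Gal4 UAS-APP, against 10.5 and 9.70 FPKM in the driver control. TrpA1, a heat-sensitive cation channel, had 1.75 and 1.35 FPKM in elav-Gal4 UAS-APP, against 2.92 and 2.83 FPKM in the driver control. Its fall of -1.05 was close to the 2-fold limit, and was -0.93 without elav-Gal4 UAS-APP replicate 2. With no median taken away the fall was also smaller than 2-fold, so the call rests on that step too.

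**Figure D4:**
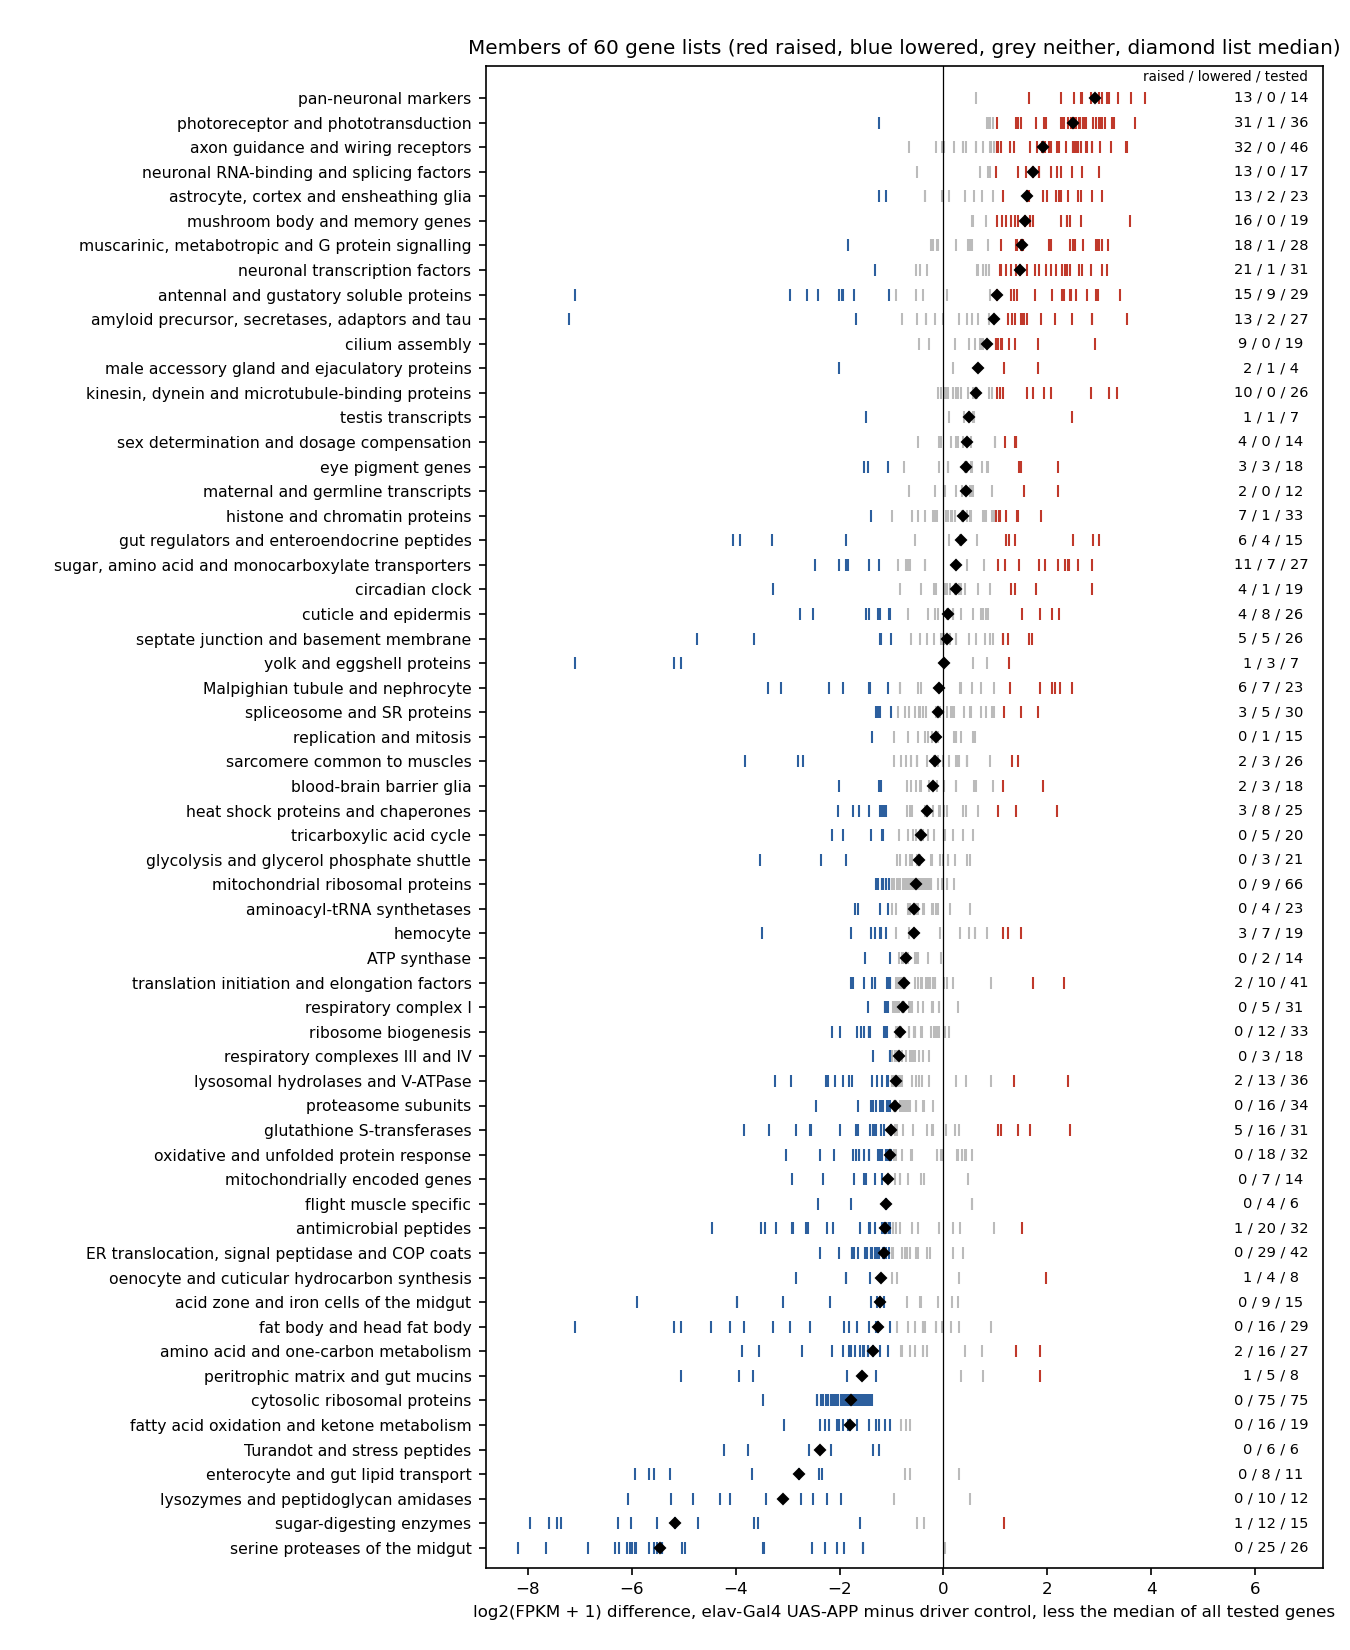
Differences of log2(FPKM + 1), elav-Gal4 UAS-APP minus the driver control less the median of all tested genes, for the members of 60 gene lists, 1 tick per gene (red raised, blue lowered, grey neither), with list medians as diamonds and the counts raised, lowered and tested at the right. Pan-neuronal markers (median 2.92) stand at the top and midgut serine proteases (median -5.46) at the bottom.

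Called genes were unevenly spread by gene length and chromosome. Tested genes were put in 5 groups of nearly equal number by span. Of the group with the longest span, 9.05 kb or more, 42.6% were raised and 5.90% lowered. Of the group with the shortest span, up to 1.29 kb, 10.1% were raised and 35.3% lowered. The share lowered was smaller in each longer group. Exon length gave the same pattern, with 40.5% raised and 3.37% lowered among genes with 4066 bp of exon or more. The level of a gene made a difference as well, with 39.9% lowered and 14.4% raised in the highest of 5 groups by mean FPKM. The parts of length, level and tissue in these shares were not tested. Genes that passed the FPKM limit only through 1 group were not counted by span, exon length or level. That route favours a call in the direction of that group.

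Of the small chromosome 4, 40 of 91 tested genes were raised (44.0%) and 2 were lowered, with a median of 0.90. The X chromosome had 21.7% raised and 15.6% lowered. The arms 2L, 2R, 3L and 3R had 17.8% to 18.8% raised and 19.7% to 22.7% lowered. The raised genes of chromosome 4 included toy (2.60), onecut (3.15) and CaMKII (1.67), which stand in the neuronal lists above. Genes that passed the FPKM limit only through 1 group were not counted by arm, nor in the runs below.

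**Figure D5:**
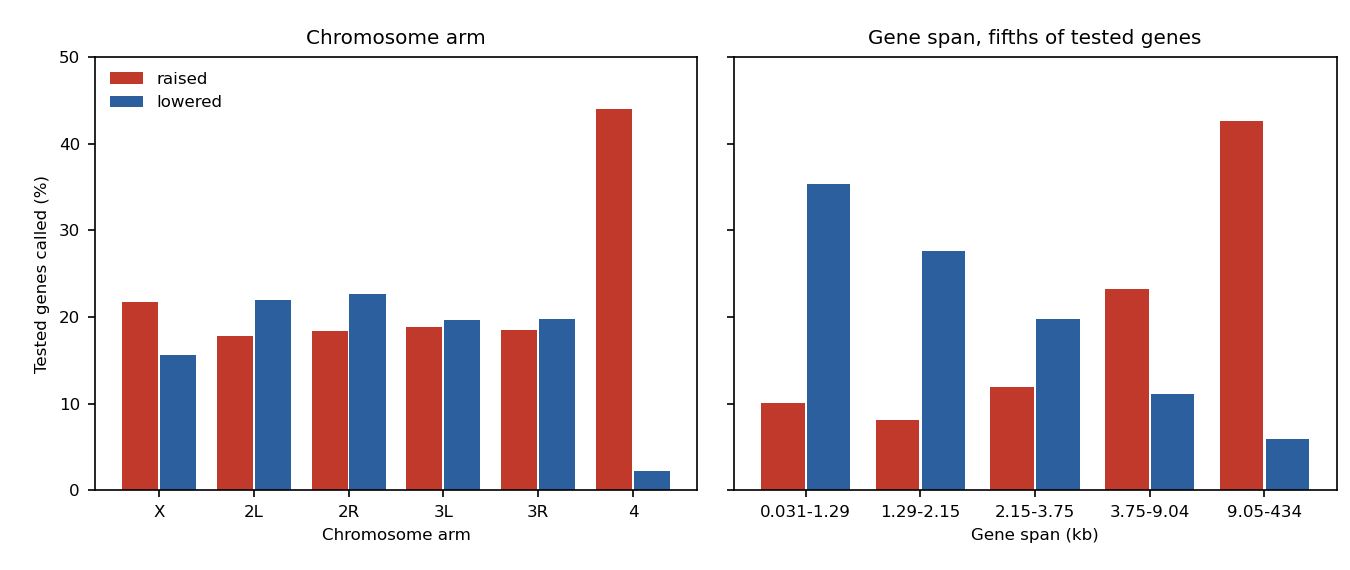
Percent of tested genes raised (red) and lowered (blue) in elav-Gal4 UAS-APP by chromosome arm (left) and by 5 groups of gene span in kb (right). Chromosome 4 stands out with 44.0% raised, and the longest genes with 42.6%.

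Some genes lowered together lay side by side. Along the chromosomes 19 runs of at least 5 neighbouring tested genes were all lowered, with 119 genes, and 5 runs were all raised, with 27 genes. The longest run held 10 genes, 9 of them trypsins from lambdaTry to deltaTry, on 2R from 11336840 to 11359176 (median -4.49). A run of 8 genes on 3L from 6033199 to 6054443 held yip7 and 4 Jonah proteases (median -5.16). The Bomanin run on 2R from 18384824 to 18395282 held 6 Bomanins and Idgf5 (median -2.65). Runs of raised genes held at most 6 genes. The one on chromosome 4 from 629691 to 690650 held 6 genes, among them the GABA transporter Gat and the glutamate receptor Ekar (median 2.08). Another on 2R from 16874724 to 16945126 held the eye protein kinase C inaC and its neighbour Pkc53E (median 2.50). Neighbours of a tandem cluster can share fragments, so these runs are not independent counts.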

How the data were processed

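RNA sequencing libraries of 3 groups of flies (2 libraries each) were read from a table of FPKM values as the authors deposited it. FPKM divides the fragments of a gene by its exon length and by the library's total. The submitters' processing notes name BDGP6, Bowtie2 2.2.3, HISAT2 2.1.0 and TopHat2, with no roles. The tool that gave the FPKM, its annotation and its use of strand are not given in the sources used here, so overlapping and antisense genes may share fragments. Samples were grouped by the genotype in the labels, and every column of per-library values was matched to a sample by its name.

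The members, the gene lists and the tests were chosen with earlier results of these data known. A gene was kept when 2 or more of the 4 libraries had FPKM of at least 1. limma 3.58.1 in R 4.3.3 was fitted to log2(FPKM + 1) of the 2 groups with a mean-variance trend, the median difference of kept genes was taken away, and Benjamini-Hochberg adjustment ran over all 9742 genes. The fit was tested on simulated data. Exact permutation of 2 against 2 libraries cannot go below p = 0.333, so no single value was tested that way. Of the listed genes 98.6% gave whole fragments in all 6 libraries when FPKM was multiplied by exon length and a library's total, within 0.02 of a whole number. These recovered fragments gave totals, shares and a limma-voom alternative. They put 3 counts at 0.153 to 0.170 FPKM for a gene with 1 kb of exon. Values carry the precision of 2 libraries a group. The variance between the libraries of a group was 1.86 (elav-Gal4 UAS-APP) and 2.21 (driver control) times that of counting alone, for genes with at least 20 fragments, so no library was a copy of another.

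Named genes are Appl, elav, w, Shal and TrpA1, the 10 most raised and 10 most lowered genes whose higher group averaged FPKM 10 or above, the 3 most abundant tested members of each list, and members called against their list where these are 5 or fewer. Cell type markers stand beside them. Other genes (ends of a list's range, paralogs, members that were not called, secretases, genes of a run) were chosen after their values were seen. Of the list entries 1622 matched a gene by symbol, synonym or identifier and 124 did not, and 99.1% of gene identifiers had a symbol in the gene name table used. Exon lengths came from the Ensembl annotation of BDGP6, which gave 99.2% of shared genes the deposited coordinates. Alternatives were other pseudocounts, filters and scalings, a fit of 6 libraries, a replicate block, and leaving out each library. Deposited tables of enriched terms were not used. Python 3.11.15, pandas 2.3.3 and matplotlib 3.10.9 were used.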

Additional observations from a re-analysis of the deposited data

How the results depend on the processing

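The counts of 1868 raised and 1942 lowered genes changed by more than 1.5 times under 2 settings, 2932 and 1291 with no median taken away and 4162 and 4191 with no fold minimum. They were 2401 and 2140 with a pseudocount of 0.1, 2385 and 1581 with no filter, 1694 and 1617 at FPKM 5, 1917 and 1694 under quantile normalization, 1868 and 1942 with 6 libraries fitted, and 2380 and 2101 with limma-voom. Leaving out 1 library gave 1865 to 1890 raised and 1921 to 1964 lowered. Over all tested genes, the replicate 1 minus replicate 2 differences of the 2 groups had a correlation of -0.004. That value does not settle whether replicate numbers pair the samples. The replicate block gave 1868 and 1943. Of 235 named genes, quantile normalization reversed 18. Their values under it were 1.81 (Obp19d), 0.68 (EbpIII), 0.17 (Fer2LCH), 1.14 (Tsf1), 0.0784 (BomS2), 0.0074 (vir-1), 0.31 (Hsp83), 0.50 (Hsc70-4), 0.27 (GstD1), 0.0664 (Men), 0.55 (eEF1alpha1), 1.05 (eEF2), 0.16 (ND-MLRQ), 1.71 (blw), 1.26 (ATPsynbeta), 1.58 (ATPsynC), 0.14 (Mdh2) and 1.39 (PyK), where all were below 0 without it. The cause was not tested. No other setting reversed any of the 235. List medians of sarcomere, tubule, barrier glia, citrate cycle, glycolysis, respiratory chain, ATP synthase, chaperone, replication, spliceosome and yolk genes changed sign under at least 1 alternative. With 2 libraries a group, no library is checked by more than 1 other. The 2 groups differ in midgut, eye and neuronal transcripts as well as genotype, and these cannot be told apart. Genes near FPKM 1 rest on few fragments.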

Other observations

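Protein domains and annotation terms in the deposited gene table gave a second view of the called genes, over 77 domain families and 526 terms with at least 15 tested genes each. The ligand-binding domain of neurotransmitter-gated channels had the most raised members in share, 17 of 21 (median 2.30), with 3 lowered, against 19.2% raised and 19.9% lowered of all tested genes. The immunoglobulin I-set domain had 52 of 67 raised and 1 lowered, and the homeobox 24 raised and 8 lowered of 48. Rhodopsin-type receptors (7tm_1) were raised in 35 and lowered in 2 of 66. No test was made of these shares, and families overlap with the lists of the text, so they are not separate support for them. For the families here and below, members that passed the FPKM limit only through the higher group were not counted. That route favours a call in the direction of that group.

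Families with many lowered members included the zinc carboxypeptidases (Peptidase_M14, 9 of 15, with 3 raised) and lipases (14 of 20, with 2 raised), against 19.9% of all tested genes. UDP-glucuronosyltransferases were lowered in 18 and raised in 3 of 27. EcKinase genes, a family annotated as ecdysteroid kinase-like, were lowered in 25 and raised in 5 of 45, and CRAL_TRIO lipid-binding proteins were lowered in 13 of 23 and raised in none. The trypsin domain went both ways, with 79 lowered and 15 raised of 127. The raised trypsin-domain genes include CG9676, CG8329, CG7829 and CG3088 of the most raised genes, which thus share a domain with the most lowered ones.

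Of 28 genes listed with the accessory gland and ejaculate, 4 had enough signal to be tested. Among these, the lectins lectin-46Ca and lectin-46Cb were raised (1.16 and 1.81). Est-6, the most abundant of them, was lowered (-2.01). The list took 0.0327% and 0.0334% of all fragments in elav-Gal4 UAS-APP, against 0.0888% and 0.0890% in the driver control. The seminal protein gene Acp26Aa had no fragment in either group, and Acp36DE had 5 and 2 in elav-Gal4 UAS-APP, against 1 and 0 in the driver control.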
